A study of Mus with 12 samples.

Results

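The transcripts of 10 chemokine receptors, picked by gene symbol from the 25247 genes of the blood table, were followed in 4 groups of mice. Chemokine receptors are G protein-coupled receptors on the surface of leukocytes. They bind chemokines, small secreted proteins that guide the cells out of the marrow, through the blood and into tissue. Each type of leukocyte carries its own set, so the receptor transcripts in a blood sample reflect both which leukocytes circulate and what those cells are equipped to follow. Cxcr1 and Cxcr2 are receptors through which neutrophils respond to Cxcl5 and related ligands. Ccr1 binds Ccl3, Ccl5 and related ligands and is found on neutrophils as well as monocytes in the mouse. Ccr2 drives the release of classical monocytes from the marrow towards Ccl2, and Cx3cr1, the fractalkine receptor, marks the patrolling monocytes. Cxcr3 is carried by activated T cells and NK cells, Cxcr5 by B cells and follicular helper T cells, Ccr6 by B cells and Th17 cells, and Ccr7 by naive and central memory lymphocytes on their way to lymph nodes. Cxcr4, the receptor for Cxcl12, retains leukocytes in the marrow and is found on most of them.

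The whole blood came from female BALB/c mice bought at 6 weeks of age. There were 12 libraries of total RNA in 4 groups of 3. The Solvent group received the vehicle alone, acetone and olive oil in the ratio 3:1. The DNCB group was sensitised and repeatedly challenged on the skin with 2,4-dinitrochlorobenzene, a hapten that induces dermatitis, with 1% in the sensitising and 0.5% in the challenge solution. The scMSC group received DNCB and subcutaneous human umbilical cord mesenchymal stem cells. The scivMSC group received DNCB and the same cells divided between the subcutaneous route and the tail vein. Blood was taken on day 30, and every group other than Solvent had been exposed to DNCB. No group received the cells without DNCB, and the human cells were given to mice with an intact immune system. The labels number the libraries 1 to 3 within a group and do not say how many animals each came from, so the tests below measure the spread between these libraries.

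Levels are given as FPKM, which divides the fragments of a gene by its length in kilobases and by the library total, and so allows receptors to be compared with each other per length. Each library held between 52179764 and 65139421 estimated counts, and haemoglobin took 78.4% to 89.0% of them. Replicates 2 and 3 of scivMSC had the least left for other genes, and scivMSC replicate 2 had the lowest amount of all 12, at 5843407 counts outside haemoglobin. That library was the lowest of the 12, or tied with another at 0, for 8 of the 10 receptors. In bulk blood, fewer cells of a type and less receptor RNA per cell cannot be told apart. Marker lists of neutrophils (10 genes), T cells (10 genes), B cells (10 genes) and monocytes (9 genes) each had a summed level above 0 in every library. Such a sum shows only that some transcripts of the list were detected. The monocyte sum was low in scivMSC, at 1.77 to 4.33 FPKM. Testing was limited to the 5527 genes that reached 1 FPKM in 3 or more libraries. Of the receptors 8 did so, whereas Ccr6 and Cx3cr1 did not and are described by their values. A gene was called changed when the adjusted p of edgeR's quasi-likelihood test was under 0.05 and the fold change over 2. Over all 4 groups, 7 of the 8 tested receptors passed the F test, close to the 72.3% of all tested genes that did. Cxcr3 was the exception, with an adjusted p of 0.12.

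**Figure D1:**
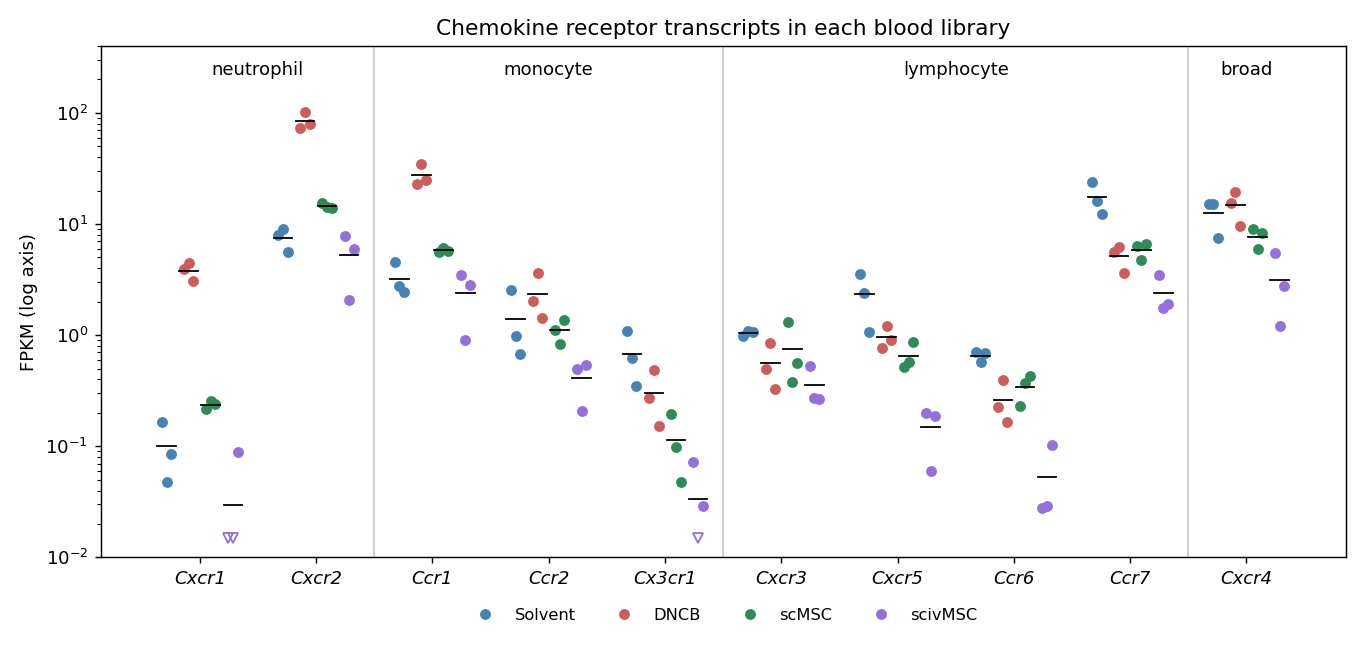
FPKM of the 10 chemokine receptors in each of the 12 libraries, on a log axis, with 1 point per library coloured by group and a black line at the group mean (zeros included). Open triangles mark libraries at 0, placed at the bottom of the axis, and the DNCB points of Cxcr1, Cxcr2 and Ccr1 lie above every other point of the same receptor.

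Of the 8 tested receptors, the neutrophil receptors had the largest rises under DNCB, and both were lower again in each group given MSC. Cxcr2 (ENSMUSG00000026180), on chromosome 1 at chr1:74153989-74161246 of GRCm38, read 7.88, 9.04 and 5.63 FPKM in the Solvent libraries and 73.6, 102 and 80.0 FPKM in the DNCB libraries. Its level was 15.5, 14.1 and 13.9 FPKM in the scMSC libraries and 7.83, 2.06 and 5.91 FPKM in the scivMSC libraries. Every DNCB library stood above every other library, every scMSC library above every Solvent library, and the scivMSC and Solvent libraries overlapped. With DNCB, Cxcr2 rose by 3.51 ± 0.39 on the log2 scale (SE, n = 3 against 3), an 11.4-fold difference with an edgeR adjusted p of 1.15e-05. Against DNCB, its log2 fold change was -2.57 ± 0.38 in scMSC (edgeR adjusted p = 0.000234) and -4.02 ± 0.40 in scivMSC (edgeR adjusted p = 4.12e-06).

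Cxcr1 (ENSMUSG00000048480) lies beside Cxcr2 on the opposite strand, at chr1:74191785-74194631, and is a far scarcer transcript. It read 0.167, 0.0474 and 0.0854 FPKM in the Solvent libraries, on 17, 5 and 10 estimated counts. In the DNCB libraries it read 3.92, 4.42 and 3.05 FPKM, on 361, 420 and 289 counts. The scMSC libraries held 0.215, 0.254 and 0.241 FPKM, and of the scivMSC libraries only replicate 3 held any, at 0.0885 FPKM on 8 counts. The 4 groups did not overlap, except that scivMSC replicate 3 lay within the Solvent range. The DNCB rise was 35.4-fold, a log2 fold change of 5.14 ± 0.82 (edgeR adjusted p = 0.000306), and rests on the low Solvent counts. In scMSC the level was lower than in DNCB by a log2 fold change of -3.99 ± 0.77 (edgeR adjusted p = 0.00155). All 3 scivMSC libraries were at or under the floor of 12 counts per library, so the level there was at least 27.0-fold lower than in DNCB (edgeR adjusted p = 1.72e-05).

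The ratio of the 2 neutrophil receptors differed between the groups. Cxcr2 exceeded Cxcr1 in FPKM by 47.3, 191 and 65.9 times in the Solvent libraries and by 72.4, 55.6 and 57.8 times in the scMSC libraries, but by 18.8, 23.1 and 26.2 times in the DNCB libraries. The DNCB ratios lay below all of the others. The ratio is a description within libraries, without a test, and in the Solvent group its denominator is a handful of counts.

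Ccr1, grouped here with the monocyte receptors, followed the neutrophil receptors and not Ccr2. Ccr1 (ENSMUSG00000025804, chr9:123962124-123968692) read 4.51, 2.77 and 2.42 FPKM in Solvent and 22.9, 34.9 and 24.9 FPKM in DNCB. It read 5.64, 6.07 and 5.70 FPKM in scMSC and 3.50, 0.909 and 2.82 FPKM in scivMSC. The DNCB libraries were again above all others, the scMSC libraries stood just above the Solvent libraries, and scivMSC overlapped Solvent. Ccr1 rose 8.53-fold with DNCB, a log2 fold change of 3.09 ± 0.43 (edgeR adjusted p = 8.79e-05). It fell by 2.26 ± 0.42 on the log2 scale in scMSC against DNCB (edgeR adjusted p = 0.00115) and by 3.52 ± 0.44 in scivMSC against DNCB (edgeR adjusted p = 1.01e-05). Across the 12 libraries Cxcr2 spanned 2.06 to 102 FPKM, while the ratio of Cxcr2 to Ccr1 stayed between 1.75 and 3.26.

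Ccr2 (ENSMUSG00000049103, chr9:124101950-124113557) behaved otherwise. It read 2.56, 0.991 and 0.678 FPKM in Solvent, 2.04, 3.61 and 1.44 FPKM in DNCB, 1.12, 0.84 and 1.37 FPKM in scMSC and 0.491, 0.209 and 0.536 FPKM in scivMSC. Solvent and DNCB overlapped through Solvent replicate 1, and scivMSC was below all 3 other groups. The DNCB change of Ccr2 was 0.74 ± 0.50 on the log2 scale and was not called (edgeR adjusted p = 0.319), but without Solvent replicate 1 it was 1.5 and called (edgeR adjusted p = 0.047). Ccr2 was -1.10 ± 0.50 in scMSC against DNCB (edgeR adjusted p = 0.111), which became a call without scivMSC replicate 2 at the same value (edgeR adjusted p = 0.0443). It fell by 2.51 ± 0.52 in scivMSC against DNCB (edgeR adjusted p = 0.00061).

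Cx3cr1 (ENSMUSG00000052336, chr9:119901616-120068296) was highest in the Solvent group, opposite to Ccr1. It read 1.08, 0.62 and 0.349 FPKM in Solvent and 0.27, 0.489 and 0.152 FPKM in DNCB. It read 0.197, 0.0992 and 0.0479 FPKM in scMSC and 0.0724, 0 and 0.0292 FPKM in scivMSC, where the counts were 19, 0 and 8. Solvent replicate 3 lay within the DNCB range, and all the scMSC and scivMSC libraries were below every Solvent library. With no filter on low values, the difference of DNCB from Solvent was -1.15 ± 0.74 on the log2 scale (edgeR adjusted p = 0.49). In that same fit the log2 fold change of Cx3cr1 in scivMSC against Solvent was -4.27 ± 0.86 (edgeR adjusted p = 0.000215). The region given for Cx3cr1 overlaps 5 other genes (Wdr48, Gorasp1, Ttc21a, Csrnp1 and Xirp1), and the sources used here do not say whether reads were assigned by strand, so its values are uncertain. No other receptor of the 10 overlaps another gene in the table.

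All 4 lymphocyte receptors had a lower mean level in DNCB than in Solvent, and Ccr7 was called. Ccr7 (ENSMUSG00000037944, chr11:99144196-99155077) had the highest mean level of the 10 receptors in the Solvent group, at 17.5 ± 5.96 FPKM (SD, n = 3). It read 24.0, 16.2 and 12.3 FPKM in the Solvent libraries and 5.61, 6.22 and 3.62 FPKM in the DNCB libraries. In scMSC it read 6.29, 4.70 and 6.63 FPKM and in scivMSC 3.46, 1.77 and 1.91 FPKM. Solvent stood above all other groups, DNCB and scMSC overlapped, and scivMSC was the lowest. Ccr7 was 3.39-fold lower in DNCB than in Solvent, a log2 fold change of -1.76 ± 0.37 (edgeR adjusted p = 0.00256). It showed no call between scMSC and DNCB, at 0.18 ± 0.36 (edgeR adjusted p = 0.727). In scivMSC against DNCB it was called lower at -1.12 ± 0.37 (edgeR adjusted p = 0.013), a call that did not hold when DNCB replicate 2, scivMSC replicate 2 or scivMSC replicate 3 was left out, where it lay between -0.98 and -0.94. Under trimmed mean (TMM) scaling, which sets the typical gene of each library level, the same change turned to 0.48 (edgeR adjusted p = 0.036).

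Cxcr5 (ENSMUSG00000047880, chr9:44511787-44561877) read 3.52, 2.39 and 1.06 FPKM in Solvent, 0.766, 1.20 and 0.900 FPKM in DNCB, 0.514, 0.577 and 0.871 FPKM in scMSC and 0.201, 0.0598 and 0.187 FPKM in scivMSC. Solvent replicate 3 overlapped the DNCB libraries, and the scivMSC libraries were below every other library. The change with DNCB was -1.28 ± 0.50 on the log2 scale and missed the threshold (edgeR adjusted p = 0.0818). It was called when Solvent replicate 3, scivMSC replicate 1 or scivMSC replicate 2 was left out, with values from -1.62 to -1.28 (edgeR adjusted p from 0.025 to 0.0428), and under TMM scaling at -1.36 (edgeR adjusted p = 0.00509). In scivMSC against DNCB, Cxcr5 fell by 2.64 ± 0.54 on the log2 scale (edgeR adjusted p = 0.000487), and under TMM scaling it fell by 1.09 (edgeR adjusted p = 0.0189).

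Cxcr3 (ENSMUSG00000050232, chrX:101731535-101734269) was close to 1 FPKM in all Solvent libraries, at 0.984, 1.09 and 1.06. It read 0.493, 0.852 and 0.327 FPKM in DNCB, 1.32, 0.38 and 0.56 FPKM in scMSC and 0.527, 0.273 and 0.267 FPKM in scivMSC. Solvent did not overlap DNCB, and scMSC overlapped each of the other 3 groups through the wide distance between replicate 1 and the rest. The DNCB change was -0.90 ± 0.57 on the log2 scale (edgeR adjusted p = 0.296), and it was called under TMM scaling at -1.16 (edgeR adjusted p = 0.0491). Ccr6 (ENSMUSG00000040899, chr17:8236043-8257141) stayed below 1 FPKM in every library. It read 0.707, 0.568 and 0.687 FPKM in Solvent, 0.228, 0.396 and 0.166 FPKM in DNCB, 0.229, 0.373 and 0.43 FPKM in scMSC and 0.0281, 0.0291 and 0.103 FPKM in scivMSC. Its Solvent libraries lay above, and its scivMSC libraries below, all others. With no filter on low values, Ccr6 differed between DNCB and Solvent by -1.29 ± 0.78 on the log2 scale (edgeR adjusted p = 0.475) and was called lower in scivMSC than in DNCB at -2.26 ± 0.83 (edgeR adjusted p = 0.0415).

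Cxcr4 (ENSMUSG00000045382, chr1:128588199-128592293), the broadly carried receptor, read 15.1, 15.0 and 7.52 FPKM in Solvent and 15.6, 19.5 and 9.56 FPKM in DNCB. It read 8.93, 5.92 and 8.27 FPKM in scMSC and 5.52, 1.21 and 2.75 FPKM in scivMSC. Solvent and DNCB overlapped widely, and both MSC groups were below DNCB in every library. Its change with DNCB was 0.25 ± 0.45 on the log2 scale (edgeR adjusted p = 0.755). It was -0.96 ± 0.46 in scMSC against DNCB (edgeR adjusted p = 0.128) and was called lower in scivMSC against DNCB at -2.24 ± 0.48 (edgeR adjusted p = 0.000706). Under TMM scaling the latter was -0.76 (edgeR adjusted p = 0.0318), less than a 2-fold change.

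Setting the receptors against each other within a library removes the scaling. Lymphocyte receptors held the largest share of the receptor transcripts in the Solvent libraries, and neutrophil receptors, nearly all Cxcr2, in the DNCB libraries. The summed FPKM of the 10 receptors was 47.0 ± 14.5 in Solvent, 141 ± 28.3 in DNCB, 37.1 ± 3.41 in scMSC and 14.2 ± 7.56 in scivMSC (SD, n = 3 each). In the Solvent libraries the lymphocyte receptors made up 48.2%, 41.6% and 47.5% of that sum, and the neutrophil receptors 13.3%, 18.7% and 18.0%. In the DNCB libraries the lymphocyte receptors made up 5.66%, 4.99% and 4.04%, and the neutrophil receptors 61.8%, 61.4% and 66.9%. Neither class overlapped between Solvent and DNCB.

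The MSC groups lay between those extremes on this scale. Neutrophil receptors were 39.4%, 43.2% and 37.2% of the sum in scMSC and 36.2%, 31.6% and 41.1% in scivMSC, below every DNCB library and above every Solvent library. Lymphocyte receptors were 20.9%, 18.1% and 22.3% in scMSC and 19.5%, 32.6% and 16.9% in scivMSC, likewise between Solvent and DNCB. The 2 MSC groups overlapped for both classes. The monocyte class, most of which is Ccr1, held 11.1% ± 2.23 in Solvent, 21.3% ± 1.14 in DNCB, 19.0% ± 1.83 in scMSC and 19.7% ± 3.13 in scivMSC (SD, n = 3 each). Its rise with DNCB was that of Ccr1, with a mean share of 6.92% in Solvent and 19.5% in DNCB. The mean shares of Ccr2 (2.80% and 1.62%) and Cx3cr1 (1.38% and 0.206%) were lower in DNCB than in Solvent. All shares of a library are parts of the same sum. The mean share of Cxcr2 was 16.4% in Solvent and 60.7% in DNCB, which left less for the other receptors together. A lower share is therefore not by itself a lower level. For Ccr2 the shares overlapped (2.04% in Solvent replicate 2, 2.08% in DNCB replicate 2), and the mean level was 1.41 FPKM in Solvent and 2.36 FPKM in DNCB. Cxcr4 was 26.5% ± 3.76 in Solvent, 10.4% ± 2.45 in DNCB, 20.6% ± 2.50 in scMSC and 21.0% ± 3.92 in scivMSC (SD, n = 3 each). The ratio of Cxcr2 to Ccr7 was 0.328, 0.559 and 0.458 in Solvent, 13.1, 16.5 and 22.1 in DNCB, 2.47, 3.01 and 2.10 in scMSC and 2.27, 1.17 and 3.09 in scivMSC. The DNCB ratios stood above all others and the Solvent ratios below all others. These shares and ratios are descriptions within libraries, without a test.

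**Figure D2:**
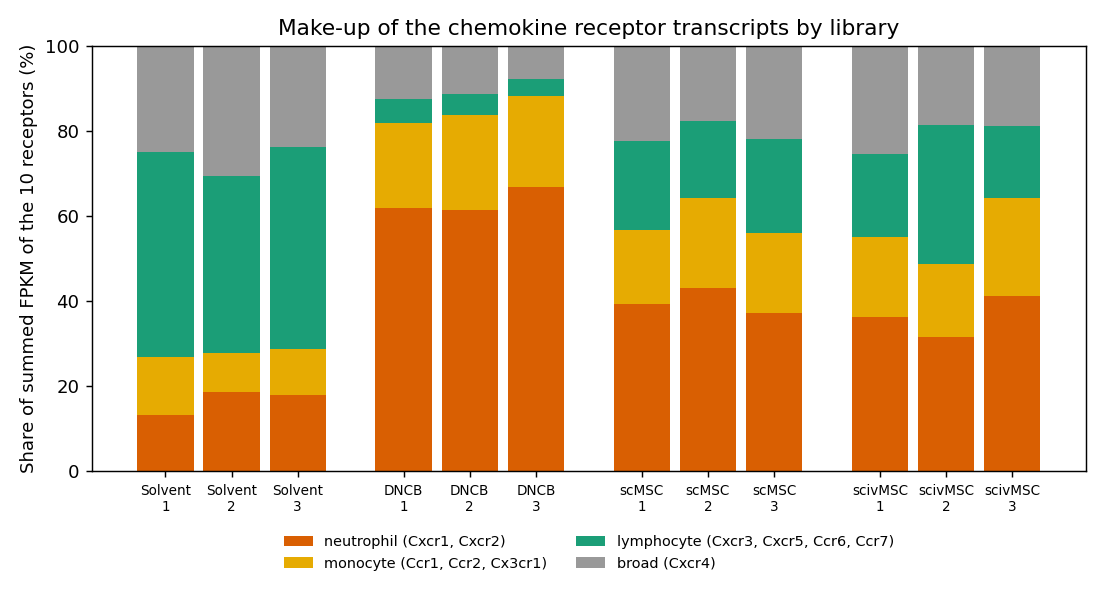
Share of the summed FPKM of the 10 receptors, in percent, held by each receptor class in each of the 12 libraries (stacked bars adding to 100%, labelled by group and replicate number). The lymphocyte share is 41.6% to 48.2% in the Solvent libraries and 4.04% to 5.66% in the DNCB libraries, and the MSC libraries lie between. Most of the monocyte share is Ccr1, which followed the neutrophil receptors.

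Set beside the whole table, the DNCB comparison placed 3 receptors (Cxcr1, Cxcr2 and Ccr1) among the genes called higher and 1 (Ccr7) among those called lower, of 8 tested. Of all tested genes 15.6% were called higher and 4.87% lower, and the median log2 fold change was 0.06. Under TMM scaling 3 receptors were called higher and 3 lower, Cxcr3 and Cxcr5 having joined Ccr7, where 16.1% and 11.5% of all genes were called. The 3 receptors called higher were called in every fit that left out 1 library.

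The comparisons of the MSC groups with DNCB use the same DNCB libraries as the comparison above, so they are not independent of it. In scMSC against DNCB, Cxcr1, Cxcr2 and Ccr1 were called lower and no receptor higher, where 24.9% of all genes were called lower and 1.27% higher. The median log2 fold change over all genes was -0.63, and these 3 receptors lay well below it, at -3.99, -2.57 and -2.26. TMM scaling called the same 3 lower, at -3.28, -1.86 and -1.54, while 12.3% of all genes were called lower and 8.74% higher. On that scaling Ccr7 stood at 0.88 (edgeR adjusted p = 0.0024), under the 2-fold limit.

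In scivMSC against DNCB, 7 of 8 receptors were called lower, Cxcr3 being the one that was not at -0.64 ± 0.58 (edgeR adjusted p = 0.335). The background was itself large, since 62% of all tested genes were called lower and 1.43% higher, with a median log2 fold change of -1.53. Against that median, Cxcr1, Cxcr2 and Ccr1 lay far lower, Ccr2, Cxcr5 and Cxcr4 somewhat lower, and Ccr7 and Cxcr3 higher. Under TMM scaling 4 receptors (Cxcr1, Cxcr2, Ccr1 and Cxcr5) were called lower and none higher, where 18.9% of all genes were called lower and 20.6% higher. Cxcr3 then stood at 1.00 (edgeR adjusted p = 0.0789), the opposite sign of its value under total-count scaling.

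**Figure D3:**
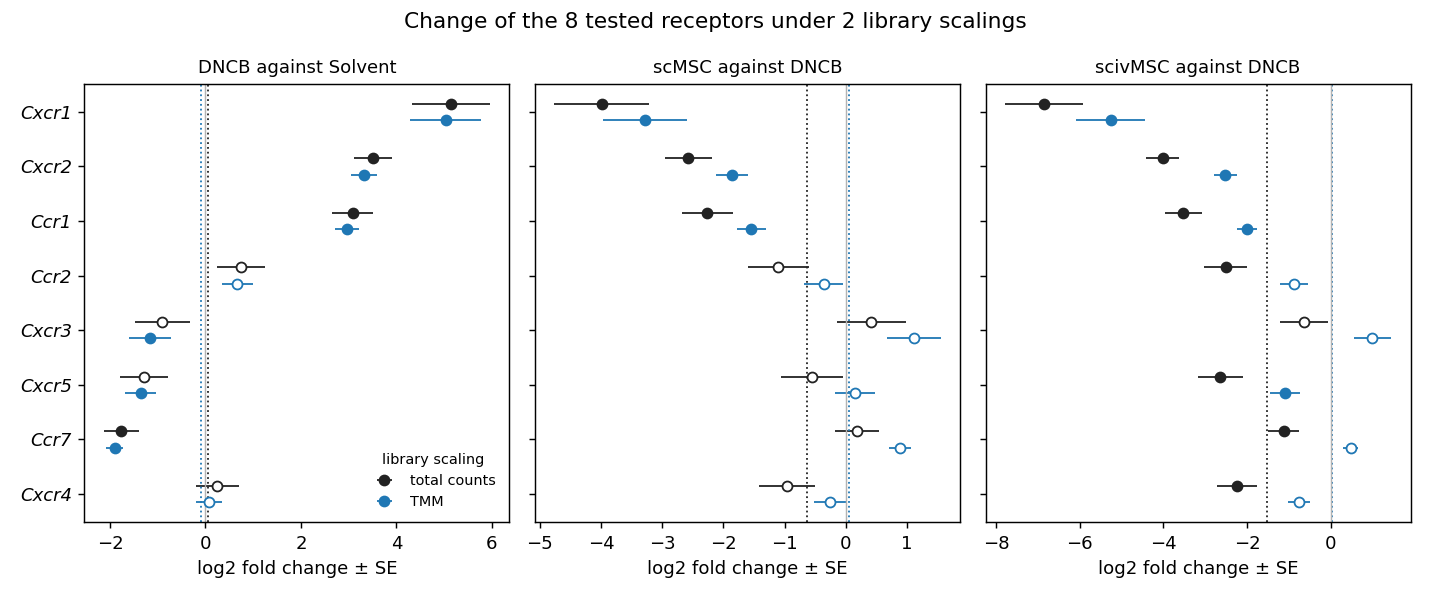
Log2 fold change (x axis, bars ± SE) of the 8 tested receptors in 3 comparisons, with libraries scaled by total counts (black) or by TMM (blue); filled points were called, open points were not, and dotted lines mark the median of all tested genes under each scaling. Cxcr1, Cxcr2 and Ccr1 are filled in all 3 panels under both scalings, and the fitted value of Cxcr1 in scivMSC depends on the fit's handling of counts near 0.

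In scMSC against Solvent, edgeR called no receptor, where 0.326% of all genes were called higher and 0.326% lower. Of the 8 receptors 3 had an unadjusted p under 0.05 (1 higher and 2 lower), and the share of all genes at that level is not given. Cxcr2 was 0.94 ± 0.36 (edgeR adjusted p = 0.124), Ccr1 0.83 ± 0.40 (edgeR adjusted p = 0.18), Ccr7 -1.58 ± 0.37 (edgeR adjusted p = 0.0604) and Cxcr5 -1.83 ± 0.51 (edgeR adjusted p = 0.0925). The groups did not overlap for any of these 4, nor for Cxcr1 at 1.15 ± 0.75 (edgeR adjusted p = 0.289). The share of all genes without overlap is not given. The count of calls moved with the scaling: under TMM, 2 receptors were called higher (Cxcr2 at 1.46 and Ccr1 at 1.42) and 2 lower (Ccr7 at -1.02 and Cxcr5 at -1.21), where 7.29% of all genes were called higher and 1.21% lower. DESeq2 called 5 receptors, where it called 451 of all 5527 genes higher and 105 lower. Limma on log2(FPKM + 1) called 1, where it called 44 genes higher and 167 lower. The main fit called 18 genes higher and 18 lower. Without scivMSC replicate 1 or scivMSC replicate 2, which enter only the shared estimate of spread, edgeR called Ccr7 at -1.58 (edgeR adjusted p of 0.0154 and 0.0108, in that order) and Cxcr5 at -1.83 (edgeR adjusted p of 0.0368 and 0.0192). Those fits called 480 and 712 of all genes lower, in the same order.

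In scivMSC against Solvent, 5 of 8 receptors were called lower (Cxcr5 -3.92 ± 0.56, Ccr7 -2.88 ± 0.39, Cxcr4 -1.99 ± 0.47, Ccr2 -1.77 ± 0.51 and Cxcr3 -1.53 ± 0.59), where 59.2% of all genes were called lower and 2.59% higher and the median was -1.47. Cxcr2 and Ccr1 were at -0.51 and -0.42, above that median, and under TMM scaling they were 0.80 and 0.96. TMM scaling called only Ccr7 (-1.42) and Cxcr5 (-2.46), both lower, where 13.4% of all genes were called lower and 22.4% higher. The count of 5 fell to 3 without Solvent replicate 1, when Ccr2 was -1.01 (edgeR adjusted p = 0.0807) and Cxcr3 was no longer called. That fit called 2633 of all genes lower, against 3272 in the main fit. Cxcr1 was not called (edgeR adjusted p = 0.0992), but it was without scivMSC replicate 3, which left 2 scivMSC libraries at 0 (edgeR adjusted p = 0.00215). Cxcr3 also lost its call in 4 other fits that left out 1 library (Solvent replicates 2 and 3, scivMSC replicates 2 and 3), its value in those 5 fits being -1.57 to -1.37 (edgeR adjusted p from 0.0501 to 0.0944).

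Between the MSC groups, 7 of 8 receptors were called lower in scivMSC than in scMSC, from -1.26 for Ccr1 and -1.28 for Cxcr4 to -2.09 for Cxcr5 and -2.87 for Cxcr1, where 30.4% of all genes were called lower and 0.344% higher and the median was -0.87. The libraries of the 2 groups did not overlap for any of the 7. Since these were picked by their call in the same libraries, this is no separate support, and the share of all genes without overlap is not given. The count of calls depended on the setting. It was 1 under TMM scaling (Cxcr5 at -1.25), where 4.92% of all genes were called lower and 13.1% higher. It was 0 in an edgeR fit of the 6 libraries alone, which called 4 of the 5527 tested genes lower and 0 higher. In that fit 7 of 8 receptors had an unadjusted p under 0.05, and the share of all genes at that level is not given. The count was 2 without scMSC replicate 1, without scMSC replicate 3 or without scivMSC replicate 2, where 502, 720 and 774 of all genes were called lower, in that order. It was 3 without scivMSC replicate 3, where 716 genes were called lower, against 1682 in the main fit.

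The receptors can be set beside transcripts that mark the same cells. Csf3r, the receptor for G-CSF carried by neutrophils, changed by 3.17 ± 0.41 on the log2 scale with DNCB (edgeR adjusted p = 4.24e-05), close to Cxcr2 and Ccr1. It had the smallest change of the 10 neutrophil markers listed, and the others ran from 4.39 (S100a9) to 6.76 (Ngp). The ratios to Csf3r below therefore depend on the choice of this marker. The ratio of Cxcr2 to Csf3r in FPKM lay between 0.29 and 0.572 in all 12 libraries, and that of Ccr1 to Csf3r between 0.117 and 0.253. The highest of both ratios were in the scivMSC group. All 10 neutrophil markers of a fixed list (granule and surface genes such as S100a8 and Camp) were called higher with DNCB (median log2 fold change 5.40), where 15.6% of all genes were. All 10 were called lower in both MSC groups against DNCB, where 24.9% of all genes were in scMSC and 62% in scivMSC. Against Solvent, 5 of the 10 were called higher in each MSC group, where 0.326% of all genes were in scMSC and 2.59% in scivMSC. In scivMSC 1 was called lower than in Solvent, where 59.2% of all genes were. Between the MSC groups, 1 was called lower in scivMSC, where 30.4% of all genes were. The summed level of the 10 markers was 212 to 430 FPKM in Solvent, 6900 to 10800 FPKM in DNCB, 560 to 699 FPKM in scMSC and 245 to 732 FPKM in scivMSC. Their part in the Cxcr1, Cxcr2 and Ccr1 changes was not tested.

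Csf1r, the receptor for M-CSF and a marker of monocytes, was 1.73 ± 0.44 higher on the log2 scale with DNCB (edgeR adjusted p = 0.00978), the single called gene of the 7 tested monocyte markers, whose median was 0.95, where 15.6% of all genes were called higher. The ratio of Ccr2 to Csf1r was 0.534, 0.335 and 0.425 in Solvent, 0.246, 0.259 and 0.164 in DNCB, 0.405, 0.434 and 0.685 in scMSC and 0.577, 0.840 and 0.975 in scivMSC. DNCB was thus below every other group for this ratio. Csf1r had the largest DNCB change of the tested monocyte markers, and the others ran from -0.95 (Ace) to 1.41 (Ms4a6d). Ratios to Csf1r therefore depend on the choice of this marker. The DNCB change of Ccr2 itself, at 0.74, was near the median of the list. The ratio of Cx3cr1 to Csf1r was 0.224, 0.209 and 0.219 in Solvent, 0.0326, 0.0351 and 0.0173 in DNCB, 0.0715, 0.0512 and 0.0239 in scMSC and 0.0852, 0 and 0.0531 in scivMSC. All 9 libraries exposed to DNCB were below every Solvent library, those of the MSC groups included. The summed level of the 9 monocyte markers was 17.9 to 45.4 FPKM in Solvent, 35.8 to 59.1 FPKM in DNCB, 11.1 to 17.4 FPKM in scMSC and 1.77 to 4.33 FPKM in scivMSC, with Ms4a6d at 0 in all 3 scivMSC libraries, and its part in the Ccr2 and Cx3cr1 values was not tested.

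The ratio of Ccr7 to the T cell gene Cd3e, a subunit of the T cell receptor complex, was 3.75, 3.90 and 3.19 in Solvent and 3.32, 4.02 and 3.30 in DNCB, which overlap, and 2.90, 2.09 and 2.24 in scMSC and 3.14, 2.46 and 3.00 in scivMSC. Every MSC library was below every Solvent and every DNCB library. This depends on the choice of marker. Against DNCB, the log2 fold change of Ccr7 was 0.18 in scMSC and -1.12 in scivMSC. The median of the tested T cell markers lay above it, at 0.53 and -0.82, but Cd3d lay below it, at -0.46 and -1.48. Cd3e itself changed by -1.73 ± 0.35 with DNCB (edgeR adjusted p = 0.00202), as did Ccr7 at -1.76. The T cell markers were called lower with DNCB in 8 of 9 tested, with a median of -1.73, and the B cell markers in 10 of 10, with a median of -2.10, where 4.87% of all genes were called lower (11.5% under TMM scaling). Cxcr5 over the B cell gene Cd79a was 0.0636, 0.0858 and 0.0624 in Solvent, 0.126, 0.0871 and 0.163 in DNCB, 0.0758, 0.0989 and 0.130 in scMSC and 0.0577, 0.037 and 0.070 in scivMSC, so DNCB lay above Solvent and scivMSC. The summed T cell level was 51.7 to 85.3 FPKM in Solvent, 19.2 to 28.7 FPKM in DNCB, 27.1 to 38.5 FPKM in scMSC and 6.99 to 18.2 FPKM in scivMSC. The summed B cell level was 56.2 to 170 FPKM, 15.0 to 42.0 FPKM, 17.0 to 23.7 FPKM and 4.9 to 9.79 FPKM in the same order. Their part in the lymphocyte receptor changes was not tested.

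**Figure D4:**
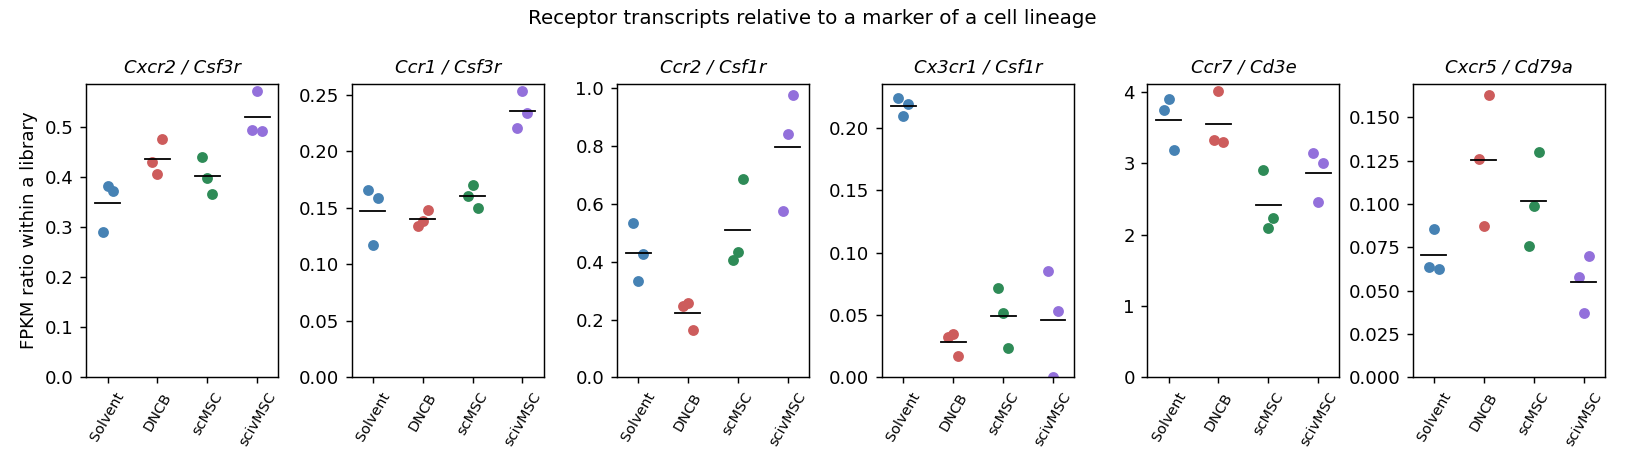
FPKM of 6 receptors divided by that of a lineage marker in the same library (y axis, a ratio without unit, from 0), with 1 point per library and a black line at the group mean. Cxcr2 over Csf3r lies between 0.29 and 0.572 in all libraries, whereas Cx3cr1 over Csf1r is 0.209 or more in the Solvent libraries and 0.0852 or less in all others. Among the tested markers of their lists, Csf3r rose least and Csf1r most with DNCB, so the ratios depend on the marker.

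The other genes of the chemokine system were sparse in blood, apart from the signalling proteins downstream of the receptors. Of 14 further chemokine receptors only Cxcr6, carried by effector T cells, and Ackr1, the scavenging receptor of red cells, were tested, and neither was called in DNCB against Solvent or in either MSC group against DNCB. Under TMM scaling 1 of the 2 was called higher in each MSC group against DNCB. Of 37 chemokine ligands 6 were tested. Ccl6, a ligand of Ccr1 made by myeloid cells, read 13.7, 12.1 and 8.53 FPKM in Solvent and 60.6, 84.7 and 61.8 FPKM in DNCB, with no overlap. It rose by 2.60 ± 0.39 on the log2 scale with DNCB (edgeR adjusted p = 0.000197) and fell by 2.02 ± 0.39 in scMSC against DNCB (edgeR adjusted p = 0.00144). Ccl5, a ligand of Ccr1 made by T and NK cells, read 16.3, 20.1 and 13.7 FPKM in Solvent and 5.52, 7.06 and 8.84 FPKM in DNCB. It fell by 1.22 ± 0.39 with DNCB (edgeR adjusted p = 0.0346). The ligands Ccl3, Ccl9, Pf4 and Ppbp were not called in that comparison. Ppbp, the platelet precursor of a Cxcr2 ligand, averaged 189 FPKM in Solvent and 274 FPKM in DNCB, with a log2 fold change of 0.53 ± 0.23 (edgeR adjusted p = 0.11). Ccl9 was called lower in scMSC against DNCB at -2.10 ± 0.48 (edgeR adjusted p = 0.0045).

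Among 21 genes that carry the receptor signal into the cell, 19 were tested and 7 were called higher with DNCB, none lower, where 15.6% of all genes were called higher and 4.87% lower. The list's median log2 fold change was 1.00 against 0.06 for all genes. The 6 with the largest change were Rgs2, a regulator that shuts off G proteins (2.26), the receptor adaptor Arrb2 (1.56), the kinase subunit Pik3cg (1.56), the G protein subunits Gnai2 (1.47) and Gnai3 (1.36), and the GTPase Rac2 (1.34), all log2 fold changes. In scMSC against DNCB 13 of the 19 were called lower, where 24.9% of all genes were, with a median of -1.35 against -0.63 for all genes. In scivMSC against DNCB 16 were called lower, where 62% of all genes were, with a median of -2.38 against -1.53. Under TMM scaling these counts were 6 lower and 2 higher in scMSC, where 12.3% of all genes were called lower and 8.74% higher, and 8 lower and 2 higher in scivMSC, where 18.9% were called lower and 20.6% higher. The 2 called higher were thus near or below the share of all genes.

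The genes whose level across the 12 libraries most resembled that of a receptor were found from Pearson's r of log2(FPKM + 1), as a description, since the libraries fall into 4 groups and share their scaling. For Cxcr2 they were Arg2, which encodes a mitochondrial arginase (r = 0.996), the AP-1 subunit Fosl2 (r = 0.996) and the phospholipase Pla2g7 (r = 0.995). For Ccr7 they were Carmil2 (r = 0.992), Ankrd10 (r = 0.990) and the DNA damage-binding protein gene Ddb2 (r = 0.989). For Ccr2 the likeness was lower, with Abi1 (r = 0.975), Vps4b (r = 0.973) and Zfp414 (r = 0.969).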

How the data were processed

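RNA sequencing of blood gave 12 libraries in 4 groups of 3. The authors deposited a table with an estimated count and an FPKM value per gene and library, and 0 value columns were without a sample. The submitters' processing notes name HISAT2 2.0, Bowtie 0.12.2, StringTie 1.3.0 and mm8, with no role. The coordinates in the table are those of GRCm38: of 21414 genes matched by symbol to RefSeq (GRCm38.p6), 99.9% overlapped, and all 10 receptors lay within 1000 bases at a start or end. The deposited counts are whole numbers, but of the values from 1 to 12, 54.8% were multiples of 4, so they were treated as estimated counts and the floor was set at 3 fragments, 12 counts per library. Floors cover counting error only.

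edgeR 4.0.16 (R 4.3.3) was run on the counts, scaled by total, in 1 fit of 12 libraries with 4 group means. Benjamini-Hochberg adjustment ran over all 5527 tested genes. The standard error was derived from the fitted change and its F statistic. The alternatives were TMM, library size without haemoglobin, DESeq2 1.42.0, limma 3.58.1 on log2(FPKM + 1) or log2(FPKM + 0.1), other filters, a replicate block, subsets of libraries and, chosen after seeing the data, counts divided by 4. The test was tested on simulated data.

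The receptors, their classes and the gene lists were chosen with earlier results of these data known. All 10 receptors were described. From the lists, the genes called in DNCB against Solvent (at most 6 per list) and the tested ligands of the receptors were named. The genes most like Cxcr2, Ccr2 and Ccr7 were the 3 tested genes with the highest correlation, without receptors and systematic names. Csf3r, Csf1r, Cd3e and Cd79a were taken from the marker lists, and Cxcr6 and Ackr1 as the only tested genes of their list. The labels give no sequencing date or batch.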

Additional observations from a re-analysis of the deposited data

How the results depend on the processing

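Of 1032 receptor values recomputed under an alternative, 902 kept their direction and side of the threshold, 75 lost a call, 39 gained one and 16 changed sign. The count of receptors called with DNCB, and that called in scMSC relative to DNCB, stayed within 1.5 times the main count under every alternative. In scivMSC against DNCB, where 7 were called, 4 were under TMM, DESeq2 and a filter at a mean FPKM of 5, which left 4 receptors to test. Of all genes, 3427 were called lower there in the main fit, 1043 under TMM and 1079 under DESeq2. In scivMSC against Solvent (5 called) the receptor count was 2 under TMM, DESeq2 and the filter at 5, and 3 under limma on log2(FPKM + 1), with 3 to 5 when 1 library was left out. Of all genes, 3272 were called lower there in the main fit, 741 under TMM, 734 under DESeq2 and 1699 under that limma setting. In scivMSC against scMSC (7 called) the receptor count was 1 under TMM, 2 under DESeq2 and the filter at 5, 4 under limma on log2(FPKM + 1), 0 in the fit of 6 libraries, and 2 to 7 when 1 library was left out. Of all genes, 1682 were called lower there in the main fit, 272 under TMM, 276 under DESeq2, 325 under that limma setting and 4 in the fit of 6 libraries. In scMSC against Solvent (0 called) the receptor count was 4 under TMM and under library size without haemoglobin, 5 under DESeq2, 1 under each limma setting, without a filter, with the filter at 5 and with counts divided by 4, 2 in the fit of 6 libraries, and 0 to 2 when 1 library was left out. The main fit called 18 of all genes higher there and 18 lower. TMM called 403 and 67, library size without haemoglobin 180 and 216, DESeq2 451 and 105, and the fit of 6 libraries 133 and 1016. The stricter filter and the smaller fit test fewer receptors or libraries by construction; for the other settings the cause was not tested.

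Changes of sign came from the scaling or from 1 library. Under TMM and DESeq2 the log2 fold changes were 0.15 and 0.11 for Cxcr5 in scMSC against DNCB, 1.00 and 1.00 for Cxcr3 and 0.48 and 0.47 for Ccr7 in scivMSC against DNCB, 0.30 and 0.30 for Ccr2 in scMSC against Solvent, and 0.80 and 0.82 for Cxcr2 and 0.96 and 0.98 for Ccr1 in scivMSC against Solvent. With 1 library left out, Cxcr4 in DNCB against Solvent ranged from -0.01 to 0.49, Cxcr3 in scMSC against DNCB from -0.25 to 0.86, Ccr7 in scMSC against DNCB from -0.02 to 0.34, and Ccr2 in scMSC against Solvent from -0.69 to 0.41. The cause was not tested.

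Same-numbered libraries of different groups did not deviate together: 2 of 18 correlations were over 0.1, and they ran from -0.16 to 0.13. The numbers were therefore not taken as pairs. With a replicate block the receptor counts were 4 for the effect of DNCB, 3 and 7 for scMSC and scivMSC relative to DNCB, 0 and 5 for the same groups relative to Solvent, and 7 between the MSC groups, each equal to the count without it. Of all 5527 genes, the block fit called 899 higher and 266 lower with DNCB. It called 1470 and 3552 lower in scMSC and scivMSC relative to DNCB, and 1 and 3320 lower relative to Solvent. Between the MSC groups it called 1905 lower in scivMSC. Receptors at a few counts, such as Cxcr1 outside the DNCB group, Ccr6 and Cx3cr1, are limited by depth.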
